A study of Saccharomyces cerevisiae with 18 samples.

Results

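The FUN26 heterozygote is a diploid strain of the budding yeast Saccharomyces cerevisiae in which 1 of the 2 copies of FUN26 (YAL022C) on chromosome 1 was replaced. Its 3 poly-A RNA libraries, chosen by their label, were set against the 9 libraries of 3 other heterozygotes, each with a different replaced ORF on the same chromosome arm. Those ORFs were SEO1 (YAL067C), which resembles permeases; GIP4 (YAL031C), whose product binds the type 1 phosphatase Glc7; and FUN14 (YAL008W), whose product lies in a mitochondrial membrane. Each strain had 3 libraries. The 6 wild-type libraries are given for context only, so that 3 of 18 libraries are those of the FUN26 heterozygote. All strains grew in log phase at 30 °C in YPD, a rich glucose medium, without the drug G418. The labels give BY4741, the name of a haploid a strain, as the background of every library, and the deposited wild-type columns carry the diploid name BY4743. They do not name what replaced FUN26, nor say whether replicates were separate cultures or clones, and the p-values therefore reflect variation from library to library, part of which may be technical.

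Fun26 belongs to the equilibrative nucleoside transporters, membrane proteins that let nucleosides pass in the direction of their gradient or together with protons. In yeast it sits mainly in the membrane of the vacuole, the acidic compartment where RNA and other macromolecules are broken down. Nucleosides freed there can be cleaved and salvaged into nucleotides by enzymes such as the purine nucleoside phosphorylase Pnp1 and the nucleoside hydrolase Urh1. A cell in rich medium can also make purines and pyrimidines anew, through the ADE and URA enzymes.

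The deposited values count reads over the last 200 bases of an ORF, so the FUN26 signal came from the short stretch before its stop codon. The table places FUN26 on chromosome 1 from 108878 to 110431, 1554 bases in all, and does not name its build. In assembly R64 of RefSeq the ORF has the same length and lies 1 base lower, from 108877 to 110430, on the minus strand. Its last 200 bases are chr1:108877-109076 in that build, coding sequence throughout, and are shown because every FUN26 count rests on them. Capitals mark the stop codon.
FUN26 window: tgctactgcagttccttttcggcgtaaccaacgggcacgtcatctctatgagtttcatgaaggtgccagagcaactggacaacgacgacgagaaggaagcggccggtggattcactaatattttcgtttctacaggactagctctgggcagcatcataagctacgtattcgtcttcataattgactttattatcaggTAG
The window has a GC content of 46.5%, and no other ORF's window overlapped it or held a near-identical copy.

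Depth was low in every strain. The 3 libraries of the FUN26 heterozygote held 52293.5 to 111600.5 counts, against 66145 to 132618 in the other heterozygotes and 66764.5 to 116519.5 in wild-type. Replicate 3 of the FUN26 heterozygote was the shallowest of the 18 libraries. Levels are given in CPM, counts scaled to a library size of 1e6 after trimmed-mean (TMM) adjustment. Of 6606 ORFs, 2659 had enough counts to be tested over the 12 heterozygote libraries. Genes of a-type haploid cells summed to 58.2 to 179 CPM in the FUN26 heterozygote and 16.2 to 144 CPM in the other heterozygotes, against 977 to 1681 CPM in the libraries labelled wild-type. The 7 genes in that sum include the pheromone genes MFA1 and MFA2. Wild-type enters the tests below only in 1 alternative fit.

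FUN26 RNA was lower in its own strain than in the other heterozygotes, by an amount that the 3 libraries placed only roughly. The FUN26 heterozygote held 9, 22 and 5 FUN26 counts in replicates 1 to 3, which correspond to 90.4, 213 and 112 CPM. The SEO1 heterozygote held 243, 470 and 233 CPM, the GIP4 heterozygote 141, 342 and 212 CPM, and the FUN14 heterozygote 269, 303 and 203 CPM. Replicates 1 and 3 of the FUN26 heterozygote lay below all 9 other libraries, while replicate 2 lay above replicates 1 and 3 of the GIP4 heterozygote and replicate 3 of the FUN14 heterozygote. Wild-type replicates 1 to 6 held 278, 384, 118, 415, 192 and 327 CPM, a range that overlaps both sets.

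FUN26 averaged 139 ± 65.7 CPM in its own strain (SD, n = 3) and 269 ± 95.4 CPM in the other heterozygotes (SD, n = 9). An exact two-sided permutation test on log2 CPM gave a difference of −0.86 and p = 0.0227, where 0.00455 is the smallest p that 220 splits allow. The test treated the 12 libraries as exchangeable, without regard to strain or replicate number, so its p does not measure variation between strains. By edgeR's quasi-likelihood test, which weighs the 3 other strains equally, the difference was −0.89 ± 0.38 on the log2 scale (SE), with a 95% interval of −1.71 to −0.08. A value of −1, at which a gene's RNA follows its copy number, lies within that interval, and so do much smaller differences. The unadjusted edgeR p was 0.0338, and the value adjusted over all 2659 ORFs was 0.998. Against single strains the log2 difference was −1.11 from the SEO1 heterozygote, −0.70 from the GIP4 heterozygote and −0.87 from the FUN14 heterozygote.

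The FUN26 difference kept its sign without any 1 library but not its side of 0.05. Without replicate 1 of the FUN26 heterozygote it was −0.64 (edgeR p = 0.173, exact permutation p = 0.127), and without replicate 3 it was −0.76 (edgeR p = 0.0990, exact permutation p = 0.0909). By edgeR alone 0.05 was also missed without SEO1 replicate 2, GIP4 replicate 2, FUN14 replicate 1 or FUN14 replicate 2, where the difference was −0.71, −0.77, −0.89 and −0.87.

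**Figure D1:**
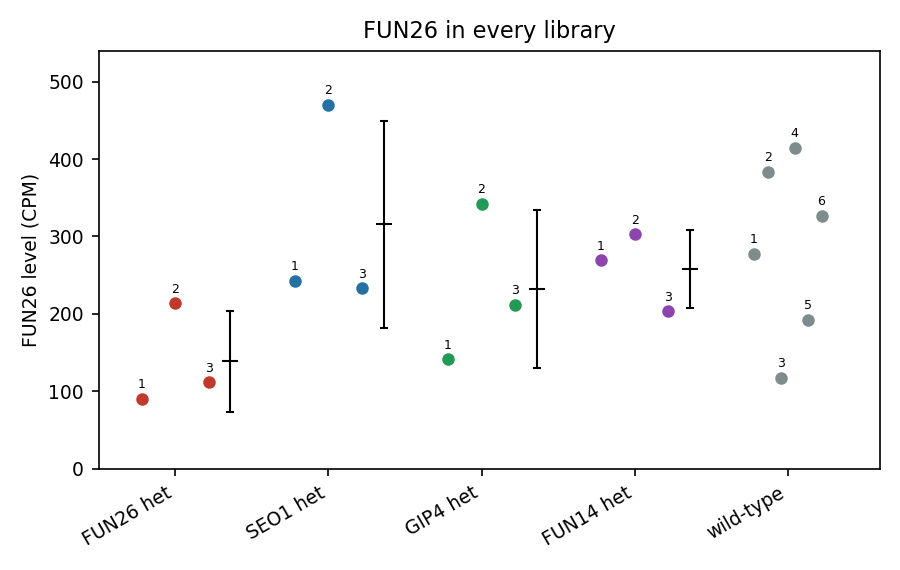
FUN26 level in CPM (vertical axis) in every library of the FUN26, SEO1, GIP4 and FUN14 heterozygotes and of wild-type, with replicate numbers above the points and the mean ± SD of 3 libraries in black. The points of the FUN26 heterozygote at 90.4 and 112 CPM sit below all 9 libraries of the other heterozygotes, and the point at 213 CPM lies among them.

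Of the other replaced genes, FUN14 in the FUN26 heterozygote overlapped the libraries of the other strains labelled with both of its copies. FUN14 held 271, 272 and 291 CPM in the FUN26 heterozygote, against 340, 276 and 358 CPM in the SEO1 heterozygote and 301, 260 and 247 CPM in the GIP4 heterozygote. In its own heterozygote FUN14 held 194, 136 and 171 CPM, below all 3 libraries of the FUN26 heterozygote. GIP4, which was too low to test, held 60.3, 48.5 and 44.7 CPM in the FUN26 heterozygote and 18.2, 11.8 and 0 CPM in its own. The SEO1 ORF had no count in any heterozygote library.

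ORFs beside FUN26 were examined next, since the study asked how the position of a gene on its chromosome bears on expression. The table held 12 ORFs whose systematic number lies within 5 of YAL022, and 5 of them were tested. No neighbour passed the test, as 0% of all tested ORFs did, and in each of the 5 the FUN26 heterozygote overlapped the other libraries. MAK16, which is needed to make the large ribosomal subunit, held 261, 388 and 235 CPM in the FUN26 heterozygote, against a lowest value of 182, a median of 353 and a highest of 619 CPM in the 9 others. Its log2 difference was −0.22 ± 0.28 (SE).

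ATS1, a gene linked to microtubule function, differed by −0.27 ± 0.31. CCR4, the main deadenylase that shortens poly-A tails, differed by 0.11 ± 0.31. YAL019W-A differed by 0.07 ± 0.27, and YAL026C-A by 0.28 ± 0.46, although the window of YAL026C-A overlaps that of SAW1 on the opposite strand. With 95% intervals that reach from −0.93 to 0.39 for ATS1 and from −0.55 to 0.77 for CCR4, changes of moderate size beside FUN26 were not detectable at this depth. The 7 untested neighbours were SAW1, DRS2, LTE1, PMT2, FUN30, LDS1 and PSK1. Among them PMT2, a protein mannosyltransferase of the endoplasmic reticulum, held 90.4, 29.1 and 224 CPM in the FUN26 heterozygote, from 9, 3 and 10 counts.

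Across all ORFs, no gene of the FUN26 heterozygote passed the test against the mean of the other 3 heterozygotes. The share called by edgeR at a Benjamini-Hochberg adjusted p under 0.05 was 0%, and the smallest adjusted p was 0.998. DESeq2 also called 0 ORFs. At an unadjusted p under 0.05 edgeR listed 35 ORFs, or 1.32% of those tested, 21 higher (0.790%) and 14 lower (0.527%) in the FUN26 heterozygote, and DESeq2 listed 22. Of all tested ORFs 51.5% had a log2 difference above 0, and the median was 0.01.

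The precision behind this count was modest. The median SE of a log2 difference was 0.35, and the median 95% interval reached 0.75 to either side. For 1385 of the 2659 ORFs (52.1%) the whole interval lay between −1 and 1, that is, within 2-fold of no difference. For the other ORFs the interval reached beyond 2-fold.

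**Figure D2:**
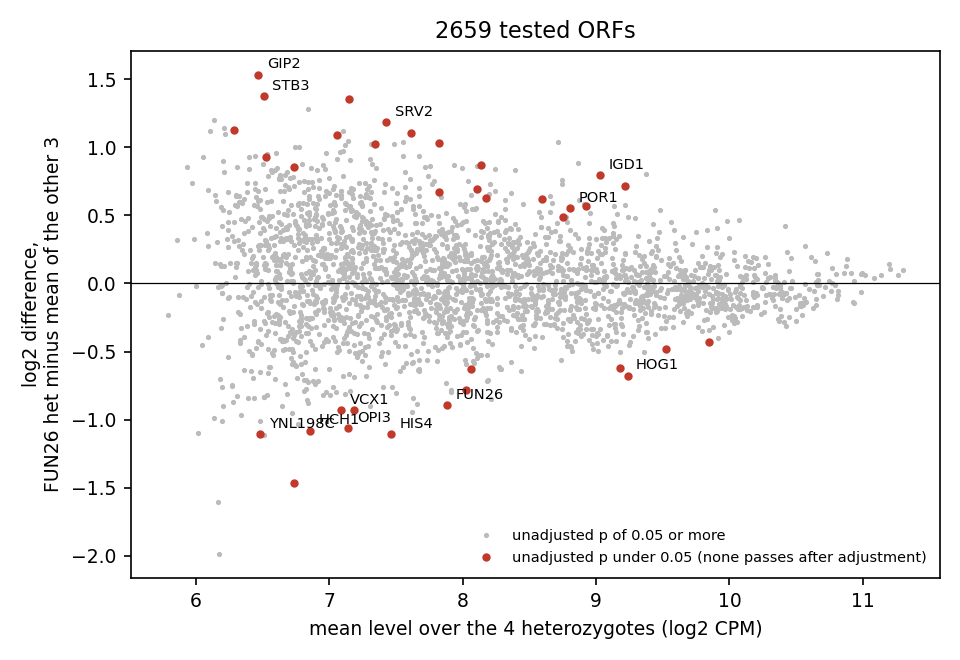
Log2 difference between the FUN26 heterozygote and the mean of the other 3 heterozygotes (vertical axis) against the mean level over the 4 heterozygotes in log2 CPM (horizontal axis), 1 point for each of 2659 tested ORFs. Red points are the 35 ORFs with an unadjusted p under 0.05, none of which passed after adjustment, and FUN26 lies among them at −0.89.

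No ORF had all 3 libraries of the FUN26 heterozygote above all 9 others, and 5 ORFs (0.188%) had all 3 below. These 5 were OPI3, HCH1, VCX1, YNL198C and YPR126C. They did not pass the test, and YPR126C, which lay outside the 12 lowest p-values, is named after its values were seen.

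OPI3, the methyltransferase that completes phosphatidylcholine synthesis, held 60.3, 102 and 67.1 CPM in the FUN26 heterozygote. It held 170, 114 and 113 CPM in the SEO1 heterozygote, 201, 153 and 247 CPM in the GIP4 heterozygote, and 215, 151 and 105 CPM in the FUN14 heterozygote. The gap between 102 and 105 CPM that separates the sets is small beside the spread within either. Its log2 difference was −1.06 ± 0.39 (edgeR adjusted p = 0.998).

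VCX1, the calcium and proton exchanger of the vacuolar membrane, held 70.3, 102 and 67.1 CPM in the FUN26 heterozygote, against 105 to 246 CPM in the other heterozygotes. HCH1, a cochaperone of Hsp90, held 60.3, 77.6 and 44.7 CPM in the FUN26 heterozygote, against 88.3 to 219 CPM in the others. The log2 differences were −0.93 ± 0.38 for VCX1 and −1.08 ± 0.41 for HCH1. Wild-type spanned 135 to 235 CPM for VCX1 and 102 to 301 CPM for HCH1, also above the FUN26 heterozygote, whereas for OPI3 it spanned 16.8 to 295 CPM and overlapped it. The libraries labelled wild-type also differed from every heterozygote in genes of a-type haploid cells, as given above.

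The other ORFs of lowest p on the lower side had varied roles. HOG1, the kinase of the osmotic stress pathway, held 352, 495 and 380 CPM in the FUN26 heterozygote, against 459 to 1103 CPM in the others, a log2 difference of −0.68 ± 0.25. HIS4, an enzyme of histidine synthesis, differed by −1.11 ± 0.48, and the RNA helicase DBP10 by −0.93 ± 0.37. CRS5, a metallothionein, differed by −0.78 ± 0.33, and BTN2, a protein-sorting chaperone, by −0.62 ± 0.27. NUT1 of the Mediator complex differed by −1.46 ± 0.66, with 20.1 to 58.2 CPM in the FUN26 heterozygote, a range that overlaps the 0 to 70.6 CPM of the GIP4 heterozygote.

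On the higher side the lowest p belonged to STB3, a protein that binds a promoter element of ribosome assembly genes. STB3 held 231, 126 and 157 CPM in the FUN26 heterozygote. It held 72.9, 32.4 and 140 CPM in the SEO1 heterozygote, 72.9, 59.0 and 53.0 CPM in the GIP4 heterozygote, and 53.8, 45.4 and 52.5 CPM in the FUN14 heterozygote. Only replicate 3 of the SEO1 heterozygote, at 140 CPM, reached into the range of the FUN26 heterozygote. The log2 difference was 1.38 ± 0.40 (edgeR adjusted p = 0.998), from 23, 13 and 7 counts in the FUN26 heterozygote.

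POR1, the porin of the outer mitochondrial membrane, held 573, 524 and 671 CPM in the FUN26 heterozygote. The 9 other libraries ran from 280 to 564 CPM, and the upper end came from the FUN14 heterozygote, which held 495, 469 and 564 CPM. The log2 difference was 0.55 ± 0.21 over all 3 strains and 0.20 from the FUN14 heterozygote alone. COX7, a subunit of cytochrome c oxidase, held 171, 116 and 201 CPM in the FUN26 heterozygote and 53.0 to 140 CPM in the others, a log2 difference of 0.85 ± 0.36.

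Several ORFs on the higher side stood highest in replicate 3 of the FUN26 heterozygote, the library with the fewest counts. The beta-tubulin gene TUB2 held 100, 97.0 and 492 CPM in the FUN26 heterozygote, against 47.2 to 144 CPM in the others. The proteasome ATPase RPT4 held 281, 243 and 783 CPM in the FUN26 heterozygote, against 118 to 348 CPM in the others. SRV2, which links adenylyl cyclase and actin, held 261, 155 and 492 CPM, against 82.0 to 177 CPM, so that replicate 1 also lay above all 9 others. The part of depth in these values was not tested.

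The libraries of the FUN26 heterozygote did not form a group of their own. A chi-square per ORF, at about 1 for libraries that differ by sampling alone, was 2.74 to 4.49 between the 3 libraries of the FUN26 heterozygote. It was 2.05 to 7.13 between them and the other heterozygotes over 27 pairs, and 1.33 to 7.82 within the other heterozygotes over 9 pairs. The first principal component of log2 CPM held 48.3% of the variance, and 52.4% of the variance of its scores lay between strains. On it the FUN26 heterozygote scored 12.4, 8.0 and −12.3, against 34.7, 26.9 and 5.63 in the GIP4 heterozygote and −12.1, −26.5 and −19.9 in the FUN14 heterozygote. Its replicates 1 and 2 thus lay within the range of the GIP4 libraries, and its replicate 3 at the upper edge of the FUN14 libraries.

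The SEO1 heterozygote was split on this component. Its replicate 1 scored 26.9, beside the GIP4 libraries, while its replicates 2 and 3 scored −25.2 and −18.6, beside the FUN14 libraries. On the second component, with 13.4% of the variance, replicate 3 of the FUN26 heterozygote stood at 28.2, above the other 11 libraries. For 2430 ORFs with a known GC content, the log2 level in each library was taken relative to the ORF's mean over the 12 libraries. Pearson's r of this relative level with GC was −0.05, 0.26 and −0.22 in the FUN26 replicates and −0.28 to 0.30 in the other heterozygote libraries. This is a correlation across ORFs, which are not independent replicates, and its part in the components was not tested.

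**Figure D3:**
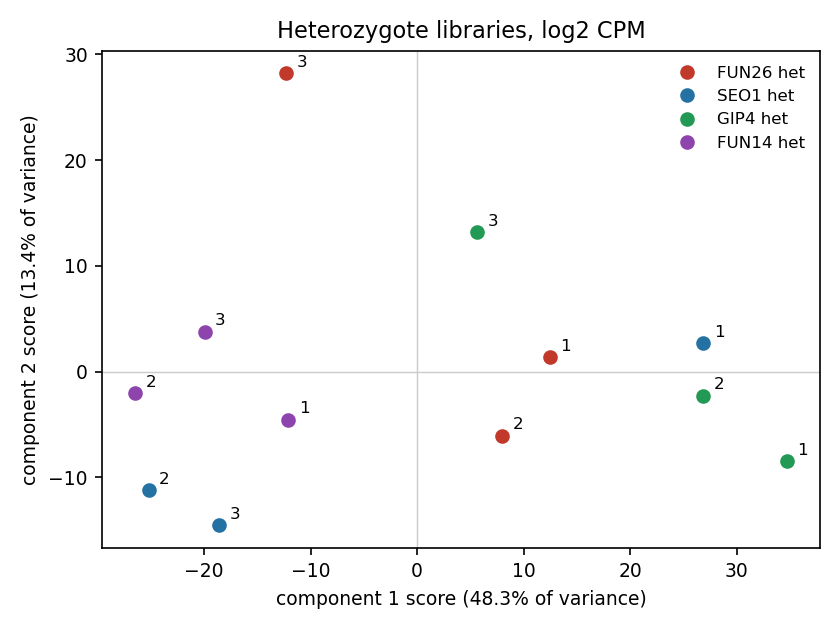
Scores of the 12 heterozygote libraries on the first (horizontal) and second (vertical) principal components of log2 CPM, coloured by strain and numbered by replicate. On the first component replicates 1 and 2 of the FUN26 heterozygote, at 12.4 and 8.0, lie within the range of the GIP4 libraries and replicate 3, at −12.3, at the edge of the FUN14 libraries, and replicate 1 of the SEO1 heterozygote at 26.9 lies far from replicates 2 and 3.

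Set against each strain singly, the FUN26 heterozygote differed by 0 called ORFs from the SEO1 heterozygote, 0 from the GIP4 heterozygote and 1 from the FUN14 heterozygote (0.0376% of 2659). At an unadjusted p under 0.05 edgeR listed 66 ORFs (2.48%), 122 ORFs (4.59%) and 212 ORFs (7.97%), and DESeq2 47, 88 and 183. Against the SEO1 heterozygote 35 were higher (1.32%) and 31 lower (1.17%) in the FUN26 heterozygote, and against the GIP4 heterozygote 59 were higher (2.22%) and 63 lower (2.37%). Against the FUN14 heterozygote 165 were higher (6.21%) and 47 lower (1.77%), the one comparison with an uneven split. The 3 comparisons share the FUN26 libraries.

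The called ORF was IGD1 (YFR017C, chromosome 6, 182262 to 182849 in the deposited table), an inhibitor of the glycogen debranching enzyme Gdb1. IGD1 held 764, 660 and 403 CPM in the FUN26 heterozygote, against 124, 136 and 65.6 CPM in the FUN14 heterozygote. It held 705, 292 and 334 CPM in the SEO1 heterozygote and 1053, 944 and 794 CPM in the GIP4 heterozygote. The 3 FUN26 libraries lay far above the 3 FUN14 libraries, below the 3 GIP4 libraries and over the range of the SEO1 libraries.

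The IGD1 log2 difference from the FUN14 heterozygote was 2.48 ± 0.41 (SE), with a 95% interval of 1.62 to 3.34 and an edgeR adjusted p of 0.0434. The difference kept its size in every one of 20 alternatives, from 2.21 to 2.71, and the call was lost in 12 of them, with adjusted p-values over the 20 from 0.000107 to 0.719. Among the libraries left out, the call was lost without replicates 1 or 2 of the FUN26, replicate 3 of the SEO1 and each replicate of the GIP4 and FUN14 heterozygotes, with edgeR adjusted p-values from 0.0515 to 0.610. Against the mean of the 3 strains the IGD1 difference was 0.79 ± 0.28 (adjusted p = 0.998).

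Other ORFs of low p followed the same order of strains, with the FUN26 heterozygote beside or under the GIP4 heterozygote and above the FUN14 heterozygote. GPD1, the glycerol-3-phosphate dehydrogenase of glycerol synthesis, held 839, 830 and 559 CPM in the FUN26 heterozygote, against 998, 985 and 1024 CPM in the GIP4 heterozygote and 355, 151 and 276 CPM in the FUN14 heterozygote. In the SEO1 heterozygote GPD1 stood at 663 CPM in replicate 1 and at 276 and 187 CPM in replicates 2 and 3. GIP2, a putative Glc7 subunit linked to glycogen, held 211, 87.3 and 89.5 CPM in the FUN26 heterozygote and 251, 153 and 141 CPM in the GIP4 heterozygote. It stayed at 36.5 CPM or less in the 6 SEO1 and FUN14 libraries. UBC9, the enzyme that conjugates SUMO, was the steadiest of these, with 251, 252 and 246 CPM in the FUN26 heterozygote. It held 207 CPM in replicate 1 of the SEO1 heterozygote and 177 to 283 CPM in the GIP4 heterozygote, against 48.6 to 108 CPM in the other 5 libraries.

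**Figure D4:**
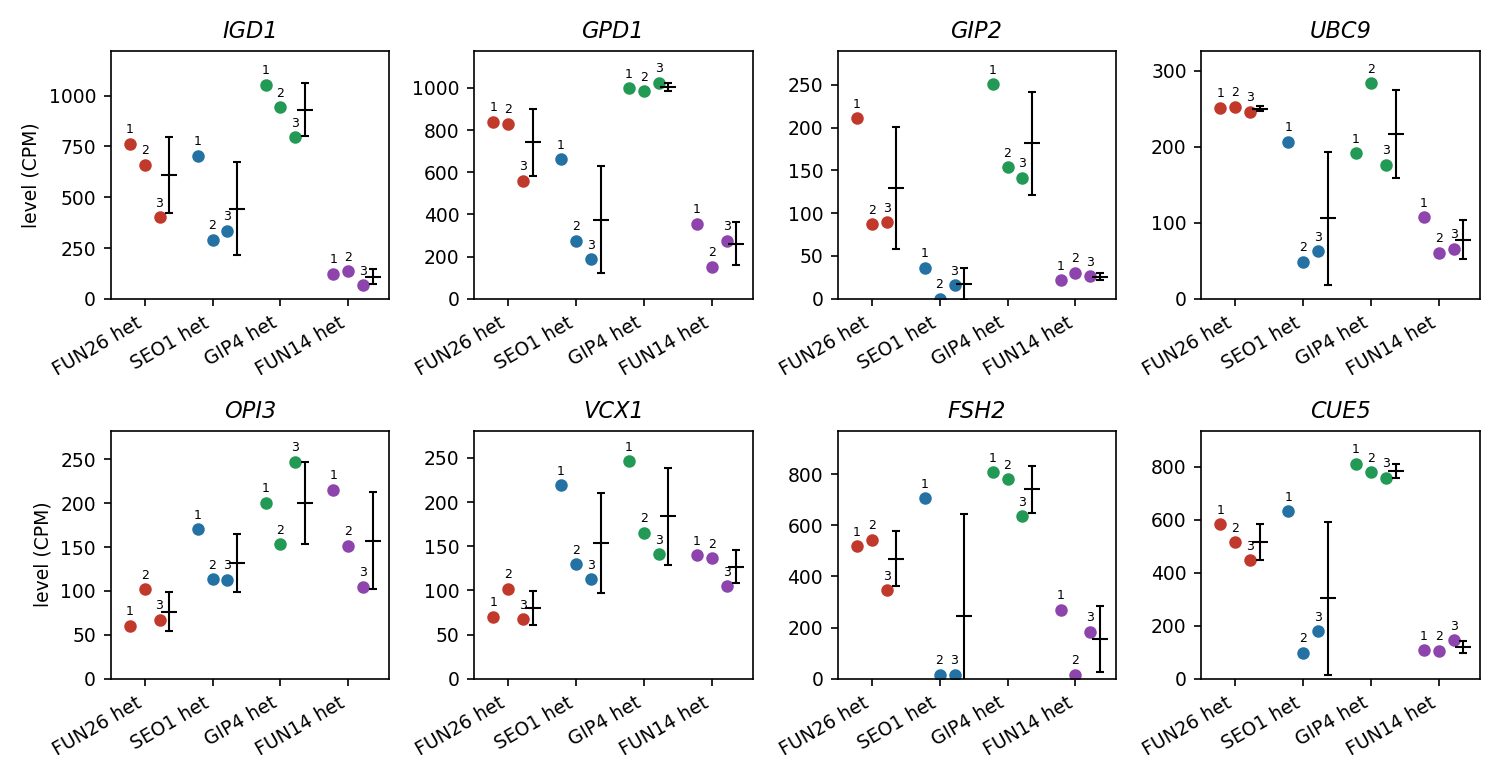
Levels in CPM (vertical axes) of IGD1, GPD1, GIP2, UBC9, OPI3, VCX1, FSH2 and CUE5 in the FUN26, SEO1, GIP4 and FUN14 heterozygotes, 1 numbered point per library, with the mean ± SD of 3 libraries in black (cut at 0). Replicate 1 of the SEO1 heterozygote lies far above its replicates 2 and 3 in FSH2 and CUE5, while OPI3 and VCX1 are lowest in the FUN26 heterozygote.

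Each library was left out in turn, and the highest counts of called ORFs came without replicate 1 of the SEO1 heterozygote. That library stood apart from its group. Leaving out any other library gave no called ORF against the mean of the 3 strains. Without replicate 1 of the SEO1 heterozygote, 11 of 2859 ORFs (0.385%) passed edgeR's test against that mean. The count was 143 against the SEO1 heterozygote (5.00%), 0 against the GIP4 heterozygote (297 at an unadjusted p under 0.05) and 51 against the FUN14 heterozygote (1.78%). All 11, 139 of the 143 and 48 of the 51 were higher in the FUN26 heterozygote. The SEO1 heterozygote then has 2 libraries. The genes named from these counts were chosen after their values were seen.

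The 11 ORFs were FSH2, ELP6, AIM39, CUE5, YDL086C-A, EDE1, YJR112W-A, TRE1, NAS6, UBX2 and YJR084W, with adjusted p-values from 0.0460 to 0.0490. The windows of YDL086C-A and UBX2 lie within an ORF of the opposite strand, whose reads cannot be told apart here. FSH2, a putative serine hydrolase, held 518, 543 and 347 CPM in the FUN26 heterozygote. It held 705, 16.2 and 15.6 CPM in replicates 1 to 3 of the SEO1 heterozygote, 807, 779 and 635 CPM in the GIP4 heterozygote and 269, 15.1 and 184 CPM in the FUN14 heterozygote. Replicates 2 and 3 of the SEO1 heterozygote were low, and replicate 1 was as high as the GIP4 libraries. With all libraries the FSH2 difference was 0.64 (edgeR adjusted p = 0.998), and without replicate 1 of the SEO1 heterozygote it was 1.92 ± 0.38.

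CUE5, an adaptor that brings ubiquitinated proteins to autophagy, held 583, 514 and 447 CPM in the FUN26 heterozygote and 811, 779 and 759 CPM in the GIP4 heterozygote. In the FUN14 heterozygote it held 108, 106 and 144 CPM, and in the SEO1 heterozygote 632, 97.3 and 179 CPM. EDE1, an endocytic scaffold, held 317, 427 and 280 CPM in the FUN26 heterozygote, against 401, 48.6 and 46.7 CPM in the SEO1 heterozygote. NAS6, a proteasome assembly chaperone, held 698, 738 and 380 CPM in the FUN26 heterozygote, against 608, 16.2 and 140 CPM in the SEO1 heterozygote. In all 11 the FUN26 heterozygote stood above replicates 2 and 3 of the SEO1 heterozygote and did not differ by the test from the GIP4 heterozygote. The first of these was largely fixed by the selection, which left only replicates 2 and 3 in the SEO1 group. The second held for every tested ORF, as 0 of 2859 were called against the GIP4 heterozygote.

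Against the FUN14 heterozygote the log2 differences hardly moved without that library, but their errors fell. IGD1 had 2.49 ± 0.33, in place of 2.48 ± 0.41, and GPD1 had 1.51 ± 0.29 with an adjusted p of 0.00914. Among the heat shock chaperones of that comparison 3 of 26 tested were lower and 1 higher, beside 3 lower and 48 higher among all 2859 ORFs (1.78% called). BTN2 held 452, 349 and 380 CPM in the FUN26 heterozygote, against 995, 1006 and 807 CPM in the FUN14 heterozygote, a difference of −1.24 ± 0.24 (edgeR adjusted p = 0.0107). The small heat shock protein HSP42 differed by −1.21 ± 0.29 and the J-domain chaperone APJ1 by −2.03 ± 0.48. AHA1, a cochaperone that activates Hsp90, differed by 1.59 ± 0.41.

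Against the 2 remaining SEO1 libraries, the called members of gene lists included 3 of 15 antioxidant genes, all higher in the FUN26 heterozygote, beside 5.00% called over all ORFs, 139 of 143 of them higher. Called members of the other lists in this comparison were also all higher, among them 4 of 45 translation factors and tRNA synthetases and 3 of 26 heat shock chaperones. The thioredoxin gene TRX2 held 1322, 1291 and 1230 CPM in the FUN26 heterozygote, against 341 and 334 CPM in replicates 2 and 3 of the SEO1 heterozygote and 1471 CPM in replicate 1. The peroxiredoxin gene TSA1 held 588, 684 and 895 CPM in the FUN26 heterozygote, against 227 and 101 CPM in those replicates and 1064 CPM in replicate 1. In nucleoside salvage 1 of 15 tested members was called, a share near that over all ORFs. It was PNP1, with 191, 194 and 89.5 CPM in the FUN26 heterozygote, against 16.2 and 54.4 CPM in those replicates (edgeR adjusted p = 0.0481) and 158 CPM in replicate 1.

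The gene lists were then read with all 12 libraries. Of 46 lists, 38 had at least 5 tested members, and 0 of them held a called member against the mean of the 3 strains, where the share called over all ORFs was also 0%. The medians ran from −0.32 to 0.35 on the log2 scale, beside 0.01 for all tested ORFs. In 5 lists the median was above 0 against each of the 3 strains, and in 8 lists it was below 0 against each. In the other 25 its sign depended on the strain.

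Nucleoside transport and salvage, the list to which FUN26 belongs, had 15 of 24 members tested, 11 of them with a positive difference and a median of 0.09. Against single strains its medians were −0.03 for the SEO1, −0.06 for the GIP4 and −0.00025 for the FUN14 heterozygote, so that the sign against the mean and against each strain differs. FUN26 was the lowest member. PNP1 held 191, 194 and 89.5 CPM in the FUN26 heterozygote, against 158, 16.2 and 54.4 CPM in the SEO1 heterozygote, 319, 330 and 238 CPM in the GIP4 heterozygote and 53.8, 30.3 and 65.6 CPM in the FUN14 heterozygote. MEU1, which cleaves methylthioadenosine, differed by −0.59 ± 0.43.

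Purine synthesis had 9 of 14 tested members above 0 and a median of 0.18. ADE17, which carries out the last steps to inosine monophosphate, held 241, 223 and 492 CPM in the FUN26 heterozygote, against 90.8 to 337 CPM in the others, a difference of 0.73 ± 0.36. Pyrimidine and deoxynucleotide synthesis had 4 of 11 above 0 and a median of −0.08. Its lowest member was URA5, an orotate phosphoribosyltransferase, at −0.78 ± 0.49.

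Among genes of the vacuole, where Fun26 resides, 3 of 7 tested membrane transporters were above 0 and the median was −0.32. Beside VCX1 these included the calcium pump PMC1, at −0.83 ± 0.64, and the amino acid exporter ATG22, at −0.76 ± 0.43. ATG22 held 60.3, 67.9 and 134 CPM in the FUN26 heterozygote, against 82.0 to 257 CPM in the others. The vacuolar proton ATPase had 4 of 15 above 0 and a median of −0.10, and the vacuolar hydrolases 4 of 8 and 0.03. The hydrolase APE1 held 281, 296 and 179 CPM in the FUN26 heterozygote and 442, 313 and 212 CPM in the GIP4 heterozygote. It held 286, 32.4 and 31.1 CPM in the SEO1 heterozygote and 96.9, 15.1 and 65.6 CPM in the FUN14 heterozygote.

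The respiratory chain and ATP synthase had 22 of 28 tested members above 0 and a median of 0.17, with 0.15 against the SEO1, 0.28 against the GIP4 and 0.17 against the FUN14 heterozygote. Centred on the 12 libraries, the list's median level was 0.39, −0.10 and 0.47 in the FUN26 replicates on the log2 scale, and from −0.31 to 0.19 in the 9 others. Replicate 2 thus lay within the range of the other strains. ATP7 and ATP18, subunits of the ATP synthase, differed by 0.55 ± 0.28 and 0.66 ± 0.35. The tricarboxylic acid cycle had 7 of 13 above 0 and a median of 0.05. Its median was 0.59 against the FUN14 heterozygote and −0.10 against the GIP4 heterozygote. The centred level of this list was 0.21, 0.14 and 0.46 in the FUN26 replicates, above the −0.49 to 0.03 of the 9 others. The list was 1 of 38 examined, and the separation depended on the measure. Summed over all 23 members, the level overlapped, at 3401 to 4754 CPM in the FUN26 heterozygote and 2875 to 4722 CPM in the others. No member of this list passed the test.

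Histones had the highest median, 0.35, with 8 of 10 above 0, but the sign rested on replicate 3. The list's centred level was −0.05, −0.18 and 0.51 in the FUN26 replicates, and the median was −0.13 without replicate 3. Glycogen and trehalose genes had 9 of 11 above 0 and a median of 0.23, with centred levels of −0.08, 0.13 and 0.60. Cytosolic ribosomal proteins of the large subunit, with 45 of 73 above 0, likewise stood at −0.02, −0.24 and 0.44 in the FUN26 replicates. The shallow replicate 3 was thus the highest FUN26 library in all 3 lists. Near-identical copies may share counts among histone and ribosomal protein genes.

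By the medians of ribosome assembly factors, the FUN26 heterozygote lay above the GIP4 heterozygote and below the SEO1 and FUN14 heterozygotes. Of 40 tested members 32 were above 0 against the GIP4 heterozygote, with a median of 0.28. Against the FUN14 heterozygote 7 were above 0, with a median of −0.36, and against the SEO1 heterozygote 12, with a median of −0.18. NOP4, a large-subunit assembly factor, held 427, 446 and 291 CPM in the FUN26 heterozygote, against 310, 319 and 353 CPM in the GIP4 heterozygote and 656, 711 and 551 CPM in the FUN14 heterozygote. Against the mean of the 3 strains 16 were above 0, with a median of −0.06. Single libraries did not all keep this order. The list's centred level was −0.06, −0.12 and 0.16 in the FUN26 replicates and −0.94, −0.24 and 0.0013 in the GIP4 replicates. GIP4 replicate 3 thus lay above FUN26 replicates 1 and 2. Replicate 1 of the SEO1 heterozygote, at −0.16, lay below all 3 FUN26 libraries.

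Heat shock chaperones had 12 of 26 above 0 and a median of −0.01. Against the FUN14 heterozygote 5 were above 0, with a median of −0.37. The list's centred level was −0.14, −0.27 and 0.31 in the FUN26 replicates and 0.16, 0.40 and 0.31 in the FUN14 replicates. Replicate 3 of the FUN26 heterozygote thus lay within the range of the FUN14 libraries. SSA4, an inducible Hsp70, held 995, 1058 and 1387 CPM in the FUN26 heterozygote and 1668, 2164 and 1922 CPM in the FUN14 heterozygote. General stress genes had 13 of 25 above 0 and a median of 0.02, and glycolysis and fermentation 14 of 21 and 0.07. Translation factors with tRNA synthetases had 27 of 43 above 0 and a median of 0.05, and the proteasome 19 of 30 and 0.08.

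**Figure D5:**
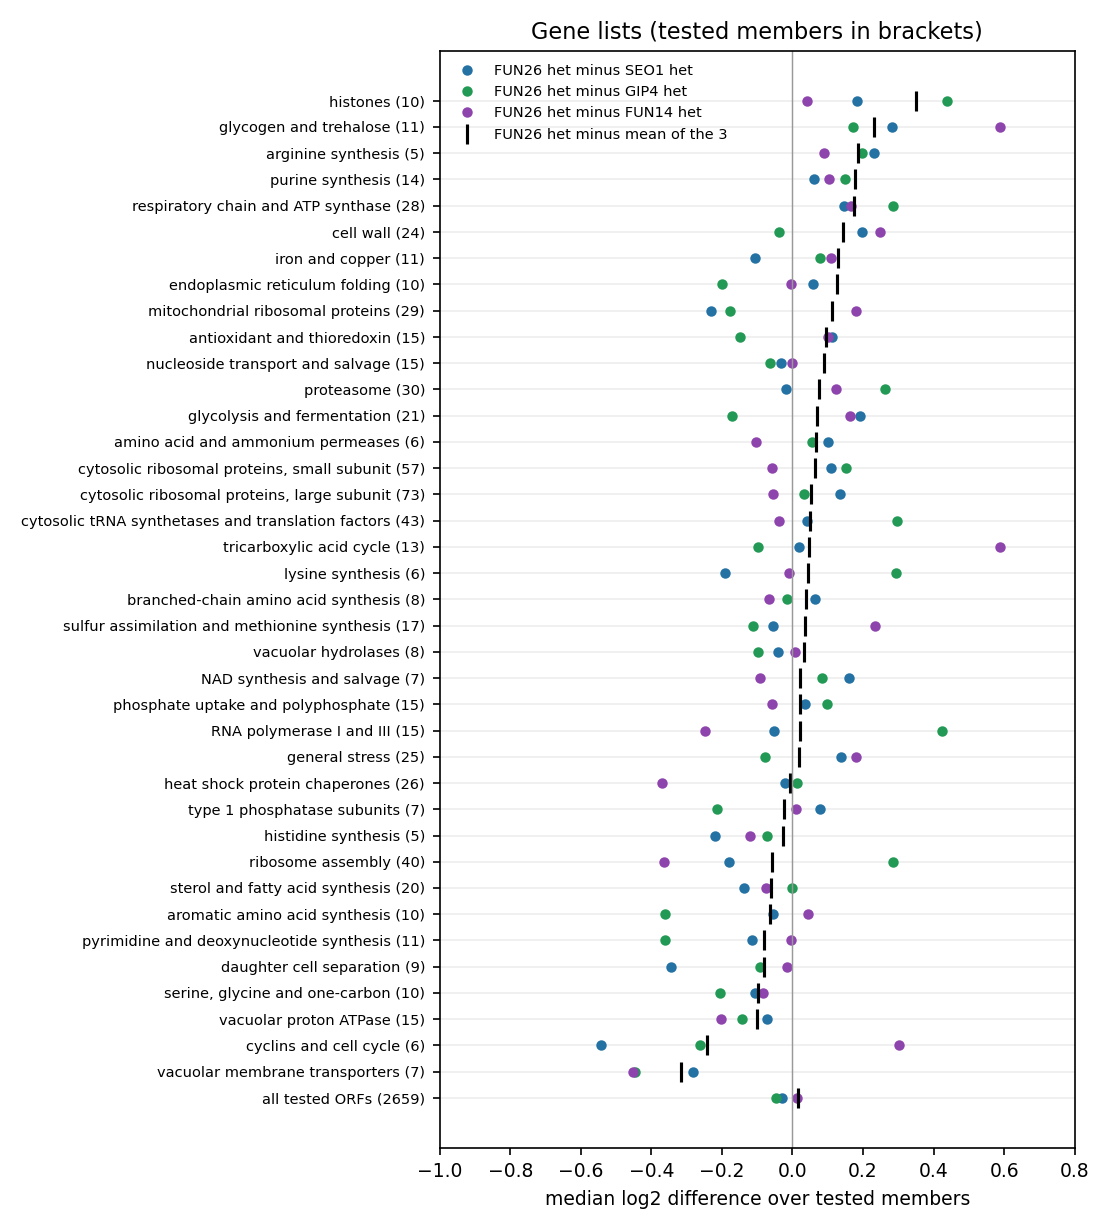
Median log2 difference of the FUN26 heterozygote over the tested members of each list (horizontal axis), against each of the SEO1, GIP4 and FUN14 heterozygotes (points) and against their mean (black bars), for 38 lists and all 2659 tested ORFs (bottom line). The bars stay between −0.32 and 0.35, and for ribosome assembly the points run from −0.36 against the FUN14 heterozygote to 0.28 against the GIP4 heterozygote.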

How the data were processed

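The authors deposited 1 table of estimated counts over the last 200 bases of 6606 ORFs in 18 libraries, per its name and header. The tools listed in the submitters' processing notes include Bowtie 0.12.5. Build, annotation, strand use and treatment of multiple matches are not stated there, so overlapping antisense ORFs and near-identical paralogs may share counts. Of the deposited values 93.0% were whole and 6.98% were multiples of 0.5, and none exceeded 201, so strong genes are compressed. R64 of RefSeq gave symbols for 5918 ORFs and the printed sequence.

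Counts were rounded, and edgeR 4.0.16 (R 4.3.3) was fitted to the 12 heterozygote libraries: TMM factors, filterByExpr with a minimum count of 10, a mean per strain, the quasi-likelihood test and Benjamini-Hochberg adjustment over all tested ORFs at 0.05. The main contrast was the FUN26 heterozygote minus the mean of the other 3. FUN26 was also tested by an exact permutation test on log2 CPM with a prior count of 2. The counts of wild-type replicates 1 and 2 agreed within sampling noise (chi-square per ORF 0.969), so both counted as 1 sample. Libraries that share a replicate number were not treated as pairs in the main fit. The fit was tested on simulated data. Alternatives were DESeq2 1.42.0, other scalings and filters, wild-type in the fit, counts corrected for 202 occupied positions, a replicate block, 2 groups, and leaving out each library.

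Named were FUN26, ORFs within 5 numbers of it, up to 12 ORFs per direction by smallest p with all 3 libraries on one side of the others' mean, up to 3 members per list by smallest p, and marker genes; genes called without replicate 1 of the SEO1 heterozygote were added after their values were seen. The strain and the lists were chosen with earlier results of these data known.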

Additional observations from a re-analysis of the deposited data

Results flagged for a closer look

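Both flagged values came from wild-type, the only group with more than 3 libraries, with replicates 1 and 2 counted as 1 sample. The summed level of 13 meiosis and sporulation genes was 739 CPM in wild-type replicate 5, far from the 50.4 to 191 CPM of the rest, while the FUN26 heterozygote held 157 to 241 CPM. The summed level of 5 auxotrophic marker genes was 345 CPM in wild-type replicate 3, far from the 793 to 955 CPM of the rest, while the FUN26 heterozygote held 704 to 1163 CPM. Each was a single sample far from the others among 6 quantities examined, and chance flags about 1 in 20. These libraries entered the comparisons of the FUN26 heterozygote only in the alternative with wild-type in the fit.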

How the results depend on the processing

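Against the mean of the other heterozygotes the count of changed genes was 0 in 20 of 21 alternatives, with 0 to 11 over the libraries left out in turn. That range was 0 to 143 against the SEO1 heterozygote, 0 to 0 against the GIP4 heterozygote and 0 to 51 against the FUN14 heterozygote. The highest counts came without replicate 1 of the SEO1 heterozygote, and the cause was not tested. The count against the FUN14 heterozygote, 1 in the main comparison, was 0 without the count filter, 0 with wild-type in the fit and 0 with occupancy-corrected counts. The FUN26 difference ran from −1.42 to −0.64 by edgeR and from −1.17 to −0.65 in the permutation test over libraries left out, and passed 0.05 by the model under the 9 other alternatives. It missed 0.05 by edgeR without replicates 1 or 3 of the FUN26, replicate 2 of the SEO1, replicate 2 of the GIP4, or replicates 1 or 2 of the FUN14 heterozygote.

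Among named genes 7 of 2594 values changed sign. Over libraries left out ILV6 ran from −0.040 to 0.24, PGM2 from −0.023 to 0.99, HIS5 from −0.067 to 0.34 and PEP4 from −0.14 to 0.48, each lowest without replicate 3 of the FUN26 heterozygote. LYS12 ran from −0.43 to 0.46 and VIP1 from −0.35 to 0.0041, both with the other sign without replicate 1. With the 9 other libraries as 1 group FIT3 stood at −0.053. Of 840 list medians 61 moved by more than the replicate spread. With the replicate number as a block the counts of changed genes were 0, 0, 0 and 1, as in the main fit. The list at an unadjusted p under 0.05 grew in each comparison, from 35 to 83 ORFs against the mean of the 3 strains. Deviations of each library from its strain's mean log2 CPM were also correlated between libraries of different strains. Pairs with the same number ran from −0.15 to 0.40 (median 0.20), with 11 of 18 pairs over 0.1 and 8 of 12 libraries closest to their own number. Pairs with different numbers ran from −0.43 to 0.43 (median −0.11), with 7 of 36 over 0.1. Such deviations cancel within a strain, so these medians are tied to each other and are not separate observations. In these deviations libraries of the same number were more alike by the median, and the cause was not tested. Depth limits the rest: 5 to 22 counts stand behind the FUN26 values of its own strain.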
